A study of Mus musculus with 28 samples.

Results

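The boundary factor CTCF and the cohesin machinery were followed through 10 genes, Ctcf, Rad21, Smc1a, Smc3, Stag1, Stag2, Nipbl, Wapl, Pds5a and Pds5b, taken by symbol from an expression table of 55450 genes. All 10 were measured in each of the 12 RNA libraries, and all 10 were among the 16415 genes with a mean of at least 0.1 TPM (a transcript abundance corrected for length and library) that entered the tests. The libraries came from C10, a line of mouse Pre-B cells with the fusion protein C/EBPαER, rat C/EBPα joined to the hormone-binding domain of the estrogen receptor. Uninduced cells gave the 0h group, and cells treated with 100 nM β-estradiol, 10 nM IL-3 and CSF-1, which turn the line into macrophages, gave the 1h, 12h and 48h groups. Each group held 3 biological replicates, and the C/EBPαER transgene was present in all of them, the 0h controls included. The cells are those of 1 line, and whether replicates were separate cultures was not given in the sources used here, so p-values measure the spread between these samples. Promoter capture Hi-C of the same time points, in which contacts of captured promoter fragments are sequenced, was deposited as 1 merged list per time point.

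CTCF is a zinc finger protein that binds DNA at oriented sites and halts loop extrusion there. Cohesin is a ring built from SMC1A, SMC3 and RAD21 that carries either STAG1 or STAG2. NIPBL loads the ring and drives extrusion, WAPL opens it and releases it from chromatin, and PDS5A and PDS5B bind the ring and take part in both its release and its acetylation. The same ring also holds sister chromatids together from DNA replication until mitosis, so its genes serve cycling cells as well as the folding of interphase chromosomes.

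Promoter sequence, credited to RefSeq on GRCm38.p6, was at hand for 7 of the 10 genes and not for Rad21, Stag2 and Nipbl. The bases before the annotated start are printed for 4 genes whose start lay on a captured fragment, because their RNA took different courses, with Ctcf, Smc1a and Pds5b lower at 48h and Wapl not. Capitals mark motif matches. The Ctcf stretch is chr8:105636288-105636537 (plus strand), the Smc1a stretch chrX:152016178-152016427 (plus strand), the Wapl stretch chr14:34673678-34673927 (plus strand) and the Pds5b stretch chr5:150673577-150673738 (plus strand), which stops where the GENCODE gene begins.
Ctcf: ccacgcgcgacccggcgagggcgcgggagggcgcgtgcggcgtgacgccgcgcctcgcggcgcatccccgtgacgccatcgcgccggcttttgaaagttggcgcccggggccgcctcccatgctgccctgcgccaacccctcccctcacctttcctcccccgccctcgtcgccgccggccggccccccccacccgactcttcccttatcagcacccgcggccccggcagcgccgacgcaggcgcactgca
Smc1a: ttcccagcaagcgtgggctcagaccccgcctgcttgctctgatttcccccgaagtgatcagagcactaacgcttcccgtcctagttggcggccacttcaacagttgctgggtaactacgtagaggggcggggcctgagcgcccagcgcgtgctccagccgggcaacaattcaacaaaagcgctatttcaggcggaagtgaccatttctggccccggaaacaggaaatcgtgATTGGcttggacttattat
Pds5b: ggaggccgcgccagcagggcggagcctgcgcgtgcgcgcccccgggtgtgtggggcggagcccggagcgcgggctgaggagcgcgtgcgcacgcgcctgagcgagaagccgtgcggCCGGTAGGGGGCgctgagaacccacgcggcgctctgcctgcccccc
Wapl: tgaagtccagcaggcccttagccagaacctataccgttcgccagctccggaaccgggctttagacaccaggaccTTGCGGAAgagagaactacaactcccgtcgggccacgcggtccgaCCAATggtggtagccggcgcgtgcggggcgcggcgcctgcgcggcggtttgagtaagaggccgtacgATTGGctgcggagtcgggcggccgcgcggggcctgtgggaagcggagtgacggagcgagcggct

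The 250 bases before the start were GC rich in all 7 genes, from 56.8% in Smc1a to 80.4% in Pds5a, against a median of 52.4% over 32851 RefSeq promoters. A set of 5 motifs was searched on both strands, after expression values had been seen, and no 2 matches overlapped. The CTCF core motif, a 12-base pattern searched by its central letters, matched in 1 of the 7, Pds5b, and in 1.17% of all promoters. The C/EBP letters TTGCNNAA matched in 1 of the 7, Wapl, and in 9.56% of all promoters. The E2F letters TTCCCGC matched in Stag1 and Pds5a and in 3.82% of all promoters. The NF-Y letters CCAAT matched in Smc1a, Stag1, Wapl and Pds5b and in 33.8% of all promoters, whereas the YY1 letters AAGATGGC matched in none of the 7 and in 1.56% of all. The Pds5b NF-Y match, at -66 from the RefSeq start, lay past the printed stretch, inside the GENCODE gene. The whole Stag1 window also lay inside its GENCODE gene. The Ctcf stretch held none of the 5. These matches describe the letters only.

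Per transcript length, the 10 genes were of moderate abundance. In uninduced cells the deposited mean TPM ran from 13.3 ± 2.71 (SD, n = 3) for Pds5a to 3.05 ± 0.67 (SD, n = 3) for Nipbl, the 93.4th and 71.5th percentile of all genes tested. Pds5a, Smc1a, Rad21 and Ctcf stood first and overlapped from one to the next, and the lowest Ctcf library lay above the highest Stag2 library. Stag2 and Smc3 followed, and below them Wapl, Pds5b, Stag1 and Nipbl overlapped along the order. At 48h the order had changed. Pds5a was still first at 6.17 ± 1.04 TPM (SD, n = 3), Wapl and Stag2 came next, Nipbl had moved from last place to just below them, and Smc1a, Smc3 and Pds5b were the 3 lowest. At that time point the only neighbours in the order whose libraries did not overlap were Ctcf and Stag1.

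Comparisons over time need a common scale, since 2 genes of the ribosomal RNA locus, CT010467.1 and AY036118, took 70.3% to 82.9% of all TPM in each library. Fold changes are therefore given on TPM divided by a median-of-ratios size factor per library ("scaled TPM"), and beside them for TPM as deposited. Among the comparisons with 0h the scale mattered most at 1h, where the all-gene median of the log2 fold change was 0.59 for TPM as deposited and 0.02 for scaled TPM. It was 0.34 and 0.07 at 12h, and -0.18 and 0.07 at 48h. Replicate 3 stood apart in the same way at each time point, with the lowest share of TPM in those 2 genes (70.3% to 76.9%) and the most genes above 0, so the counts of calls are also given without it. The tests are limma fits across all 16415 genes with Benjamini-Hochberg adjustment, and a gene is called at an adjusted p under 0.05. TPM keep no read depth, so the depth behind each value is unknown here. In bulk RNA, fewer cells of a kind and less RNA per cell cannot be told apart.

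**Figure D1:**
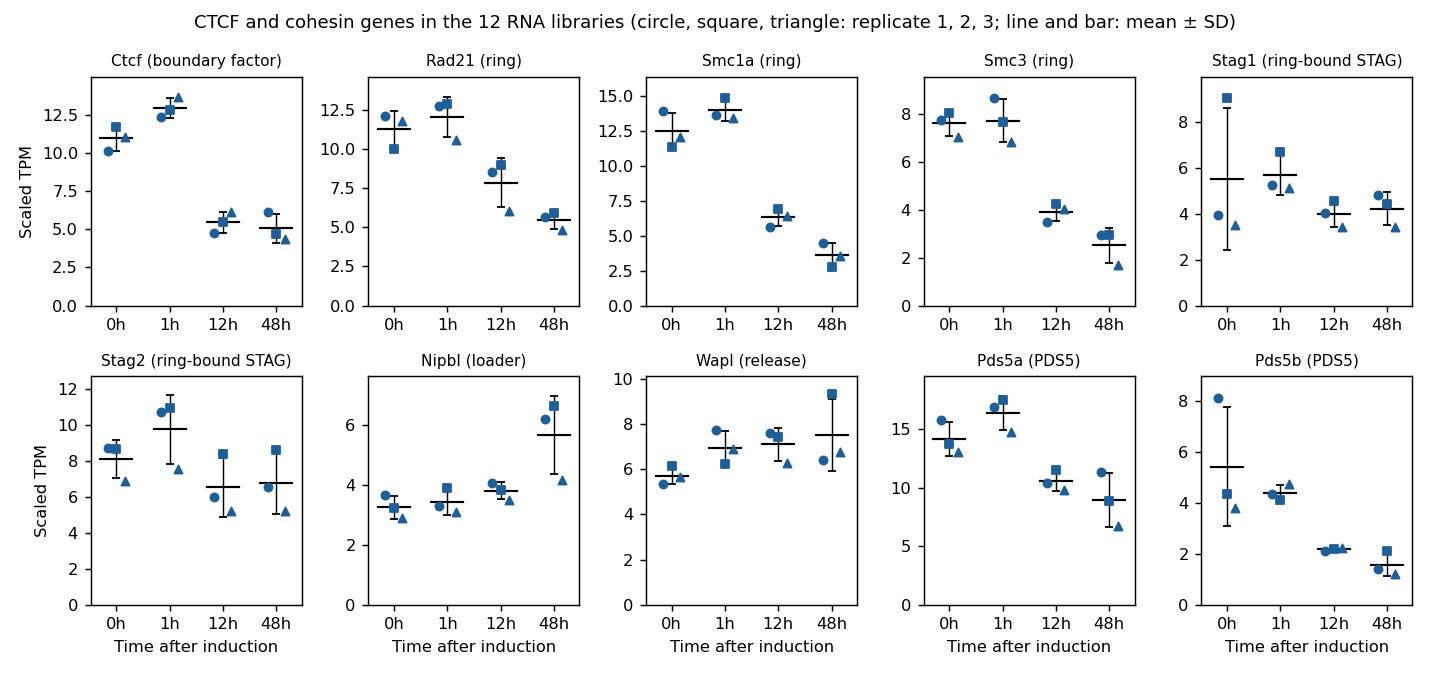
Scaled TPM of the 10 genes (vertical axes, each from 0) at 0h, 1h, 12h and 48h (horizontal axes). Points are the 3 replicates, and lines and bars are the mean and SD. Ctcf, Rad21, Smc1a, Smc3, Pds5a and Pds5b sit lower at 12h and 48h than at 0h and 1h in every library. Nipbl is highest at 48h, and 1 replicate at 0h stands apart in Stag1 and in Pds5b.

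The comparison of 48h with 0h asks what became of this machinery once the cells had turned to macrophages. Of the 10 genes, 6 fell on both scales: Ctcf, the ring genes Rad21, Smc1a and Smc3, and both PDS5 genes. Of all genes tested, 22% fell on the scaled values and 21.9% on both scales. The loader gene Nipbl rose on the scaled values, where 24.5% of all genes rose, and did not pass the test for TPM as deposited. Stag1, Stag2 and Wapl passed the test on neither scale. Without replicate 3 of every time point the same 6 genes were lower and Nipbl was higher. The median log2 fold change over the 10 genes was -0.86 on scaled TPM, against 0.07 for all genes tested.

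Ctcf stood at 10.4, 10.8 and 9.26 TPM (0h), 19.2, 19.5 and 18.1 TPM (1h), 5.05, 6.07 and 8.3 TPM (12h) and 3.83, 3.35 and 3.28 TPM (48h). All 3 libraries at 12h and at 48h lay below all 3 at 0h. On scaled TPM it was lower at 12h (log2 fold change -1.0, SE 0.15, adjusted p = 0.000566, limma) and at 48h (-1.11, SE 0.15, adjusted p = 0.000116, limma), or 2.17-fold lower at 48h by the group means. The call at both times held for TPM as deposited (log2 fold change -0.67 and -1.52). From 12h to 48h the scaled level moved from 5.44 ± 0.70 to 5.05 ± 0.93 (SD, n = 3), and the libraries overlapped.

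All 3 ring genes were lower at 48h. Smc1a, the ring's X-linked SMC subunit gene, stood at 14.4, 10.4 and 10.1 TPM (0h), 21.2, 22.6 and 17.8 TPM (1h), 6.02, 7.66 and 8.63 TPM (12h) and 2.8, 1.99 and 2.65 TPM (48h). The highest 48h library was below the lowest 12h library, and the highest 12h library was below the lowest 0h library. On scaled TPM the log2 fold change was -0.97 at 12h (SE 0.17, adjusted p = 0.00141, limma) and -1.79 at 48h (SE 0.17, adjusted p = 6.58e-06, limma), a 3.47-fold lower level at 48h and, in size, the largest of the 10 on that scale.

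Smc3, whose product pairs with SMC1A, followed the same course at a lower level. Its deposited values were 8.02, 7.42 and 5.91 TPM (0h), 13.5, 11.8 and 9.08 TPM (1h), 3.72, 4.74 and 5.46 TPM (12h) and 1.84, 2.12 and 1.26 TPM (48h). The libraries of 12h and of 48h lay below those of 0h without overlap. The scaled log2 fold change was -0.94 at 12h (SE 0.21, adjusted p = 0.00545, limma) and -1.60 at 48h (SE 0.21, adjusted p = 7.4e-05, limma). For TPM as deposited the 12h call was lost (adjusted p = 0.0766) and the 48h call held.

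Rad21, which closes the ring, stood at 12.5, 9.21 and 9.91 TPM (0h), 19.9, 19.6 and 14.0 TPM (1h), 9.08, 9.98 and 8.17 TPM (12h) and 3.56, 4.26 and 3.61 TPM (48h). As deposited, the 12h libraries overlapped those of 0h, and the 48h libraries lay below all others. The scaled log2 fold change was -0.54 at 12h (SE 0.17, adjusted p = 0.035, limma) and -1.03 at 48h (SE 0.17, adjusted p = 0.000466, limma). The 12h call was lost under several settings. Without 0h replicate 1, 0h replicate 3 or 12h replicate 3 the log2 fold change was -0.49, -0.51 and -0.36 (adjusted p = 0.0986, 0.091 and 0.108). The adjusted p was 0.445 for TPM as deposited, 0.264 for TPM rescaled without the 20 most abundant genes, 0.0771 after quantile normalization, 0.0648 with no variance trend, 0.078 in a fit of only the 6 libraries compared and 0.0992 without replicate 3 of every time point.

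The alternative STAG subunit genes did not pass the test at any time against 0h on scaled TPM. Stag2, the more abundant of the pair, stood at 9.03, 7.97 and 5.78 TPM (0h), 16.7, 16.8 and 10.1 TPM (1h), 6.42, 9.32 and 7.07 TPM (12h) and 4.11, 6.19 and 3.92 TPM (48h). Stag1 stood at 4.06, 8.34 and 2.94 TPM (0h), 8.21, 10.3 and 6.82 TPM (1h), 4.29, 5.05 and 4.64 TPM (12h) and 3.02, 3.17 and 2.57 TPM (48h). The libraries of 48h and 0h overlapped in both genes. The log2 fold changes at 48h were -0.27 for Stag2 (SE 0.23, adjusted p = 0.38, limma) and -0.26 for Stag1 (SE 0.31, adjusted p = 0.534, limma), and for TPM as deposited -0.68 (adjusted p = 0.0639) and -0.66 (adjusted p = 0.116). In Stag1, 0h replicate 2 was more than the sum of the other two, and without it the scaled log2 fold change was 0.16 (adjusted p = 0.559).

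Nipbl, the loader gene, was higher at 48h on scaled TPM, where the ring genes were lower. Its deposited values were 3.76, 2.95 and 2.43 TPM (0h), 5.11, 5.92 and 4.08 TPM (1h), 4.33, 4.27 and 4.74 TPM (12h) and 3.89, 4.74 and 3.13 TPM (48h). As deposited, the libraries of 48h and 0h overlapped. On scaled TPM it went from 3.25 ± 0.38 at 0h to 5.66 ± 1.31 at 48h (SD, n = 3), all 48h libraries lay above all 0h libraries, and the log2 fold change was 0.76 (SE 0.19, adjusted p = 0.00629, limma). For TPM as deposited it was 0.36 (adjusted p = 0.224), and with TPM rescaled without the 20 most abundant genes 0.69 (adjusted p = 0.0819), so this call depended on the scale.

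Wapl, the release factor gene, passed the test at no time against 0h on scaled TPM. It stood at 5.52, 5.64 and 4.75 TPM (0h), 12.1, 9.5 and 9.11 TPM (1h), 8.09, 8.26 and 8.49 TPM (12h) and 4.01, 6.69 and 5.09 TPM (48h). As deposited, the 12h libraries were the closest together of any time point, and on both scales they lay above those of 0h. The log2 fold change at 12h was 0.30 on scaled TPM (SE 0.16, adjusted p = 0.192, limma) and 0.64 for TPM as deposited (adjusted p = 0.0309), a scale on which 22.3% of all genes were called higher at that time. At 48h it was 0.37 (SE 0.16, adjusted p = 0.0902, limma) and -0.04 (adjusted p = 0.916), so the scale set the sign.

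Both PDS5 genes fell by 48h. Pds5a, the most abundant of the 10, stood at 16.2, 12.6 and 10.9 TPM (0h), 26.4, 26.7 and 19.6 TPM (1h), 11.1, 12.8 and 13.2 TPM (12h) and 7.09, 6.37 and 5.04 TPM (48h). Pds5b stood at 8.35, 4.01 and 3.19 TPM (0h), 6.75, 6.29 and 6.29 TPM (1h), 2.26, 2.45 and 3.04 TPM (12h) and 0.88, 1.51 and 0.92 TPM (48h). In both genes every 48h library lay below every 0h library. The scaled log2 fold change at 48h was -0.68 for Pds5a (SE 0.18, adjusted p = 0.00853, limma) and -1.67 for Pds5b (SE 0.27, adjusted p = 0.000385, limma). The Pds5a call was lost in a fit of only the 6 libraries compared (adjusted p = 0.0541). At 12h Pds5b was lower on scaled TPM (-1.19, SE 0.27, adjusted p = 0.00651, limma) and not called for TPM as deposited (adjusted p = 0.0642), and Pds5a was called on neither scale (log2 fold change -0.42, adjusted p = 0.102 on scaled TPM), though it was called lower with the replicate block (adjusted p = 0.049) and in a fit of only the 6 libraries compared (adjusted p = 0.0368). Replicate 1 of 0h was high in Pds5b, and without it the 48h log2 fold change stayed called, within a range of -1.89 to -1.35 over the 6 leave-one-out fits.

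**Figure D2:**
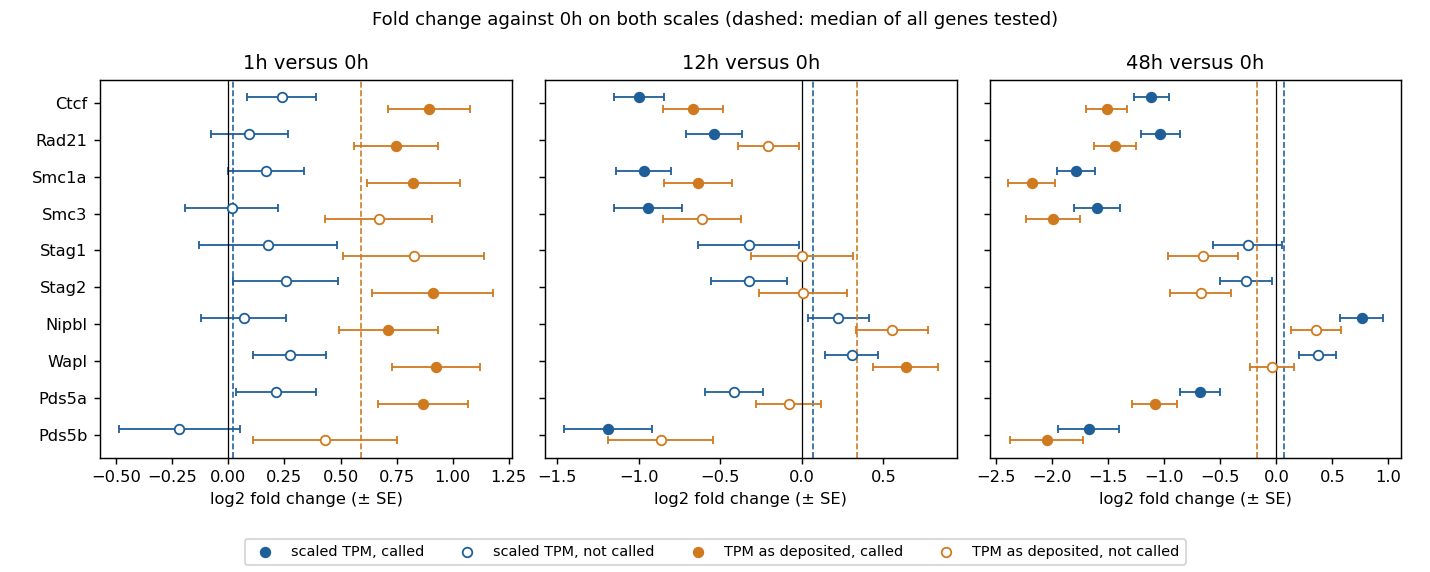
Log2 fold change against 0h (horizontal axes, bars are SE) of the 10 genes at 1h, 12h and 48h, for scaled TPM (blue) and TPM as deposited (orange). Filled points passed the test and dashed lines are the medians of all genes tested. At 48h the same 6 genes are called lower on both scales.

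The steps between time points placed most of the fall after the first hour. At 1h against 0h none of the 10 was called on scaled TPM by limma, where 5.42% of all genes were called higher and 4.92% lower, and none had an unadjusted limma p under 0.05 (smallest 0.126). For TPM as deposited 7 were called higher and 24.1% of all genes were, at an all-gene median of 0.59 and a median over the 10 genes of 0.83. At 12h against 0h, 5 of the 10 fell on scaled TPM (14.5% of all genes) and 2, Ctcf and Smc1a, on both scales (7.81% of all genes). At 12h against 1h, 6 fell on both scales, Ctcf, Rad21, Smc1a, Smc3, Pds5a and Pds5b, against 8.77% of all genes. Ctcf had the largest change of that step (log2 fold change -1.24, SE 0.15, adjusted p = 0.000186, limma). Of those 6, Ctcf, Smc1a and Smc3 remained called whichever library was left out, while the Pds5b call was lost without any single one of the 6 libraries (adjusted p 0.0605 to 0.0876). Pds5a was not called without 1h replicate 1 or 2 or 12h replicate 1 or 3 (adjusted p 0.0771 to 0.0945), nor was Rad21 without 1h replicate 1 or 2 or 12h replicate 3 (adjusted p 0.0715 to 0.0791).

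At 48h against 12h, Smc1a (log2 fold change -0.82, SE 0.17, adjusted p = 0.00529, limma) and Smc3 (-0.66, SE 0.21, adjusted p = 0.0424, limma) fell further on both scales, against 11.9% of all genes lower on scaled TPM and likewise on both scales. For TPM as deposited 7 of the 10 were called lower at this step (31.7% of all genes), with an all-gene median of -0.62. The Smc3 call was lost without any one of 12h replicates 1, 2 and 3 (adjusted p = 0.0566, 0.125 and 0.108) or without 48h replicate 3 (adjusted p = 0.0719). Without replicate 3 of every time point neither Smc1a (adjusted p = 0.0911) nor Smc3 (adjusted p = 0.126) was called at this step, and Rad21 was. Wapl was called lower at this step for TPM as deposited (log2 fold change -0.67, adjusted p = 0.02, limma) and stood at 0.06 on scaled TPM (adjusted p = 0.846).

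Because the scale moves every gene of a library together, ratios of 2 genes within a library do not depend on it. A set of 6 such ratios was compared over the 4 time points by an exact permutation test of the F statistic over all ways to divide the 12 libraries, with Benjamini-Hochberg adjustment over the 6. None passed. The largest shift was Pds5a over Pds5b, which went from 2.84 ± 0.79 at 0h to 5.92 ± 1.96 at 48h (SD, n = 3), with an exact p of 0.00961 and 0.0577 after adjustment. Its 48h libraries, at 8.06, 4.22 and 5.48, all lay above those of 0h, at 1.95, 3.14 and 3.43. Stag1 over Stag2 was 0.67 ± 0.33 at 0h and 0.63 ± 0.11 at 48h (SD, n = 3), with an exact p of 0.987. Nipbl over Wapl, the loader over the release factor, went from 0.57 ± 0.09 to 0.76 ± 0.18 (exact p = 0.0657, adjusted 0.165). Rad21 over Smc3 (exact p = 0.0826), Ctcf over Rad21 (exact p = 0.169) and Smc1a over Smc3 (exact p = 0.739) did not pass either. The adjusted p of Pds5a over Pds5b, Rad21 over Smc3 and Ctcf over Rad21 was 0.0457 without 12h replicate 3, and that of Pds5a over Pds5b was 0.0113 without 48h replicate 2. With 3 libraries against 3, the smallest two-sided p that an exact test of 48h against 0h alone can reach is 0.1.

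Set against the mean of Rad21, Smc1a and Smc3 in the same library, a quantity chosen after the values were seen and therefore given with no test, 6 of the other 7 genes were higher at 48h than at 0h. Nipbl was 0.32, 0.33 and 0.28 of the ring mean (0h), 0.28, 0.33 and 0.30 (1h), 0.69, 0.57 and 0.64 (12h) and 1.42, 1.70 and 1.25 (48h), a 4.69-fold higher mean at 48h than at 0h. Wapl was 0.48, 0.62 and 0.55 of the ring mean (0h), 0.66, 0.53 and 0.67 (1h), 1.29, 1.11 and 1.14 (12h) and 1.47, 2.40 and 2.03 (48h), 3.58-fold higher at 48h. In both genes the 0h and 12h libraries did not overlap, nor did those of 12h and 48h. Stag2 was 2.27-fold, Stag1 2.03-fold, Pds5a 1.7-fold and Ctcf 1.24-fold higher relative to the ring at the end than before induction, with libraries apart, and Pds5b was 0.80-fold with overlap. Of the 7 genes, Ctcf and Pds5b had the smallest shift against the ring mean and Nipbl had the largest. These ratios hold for either scale. The ring genes fell, so a gene at the all-gene median log2 fold change of 0.07 (scaled TPM) would also rise against the ring. The ratio was not computed over all genes. At 48h against 0h on scaled TPM, Ctcf and Pds5a were called lower, and Stag1, Stag2 and Wapl were not called.

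**Figure D3:**
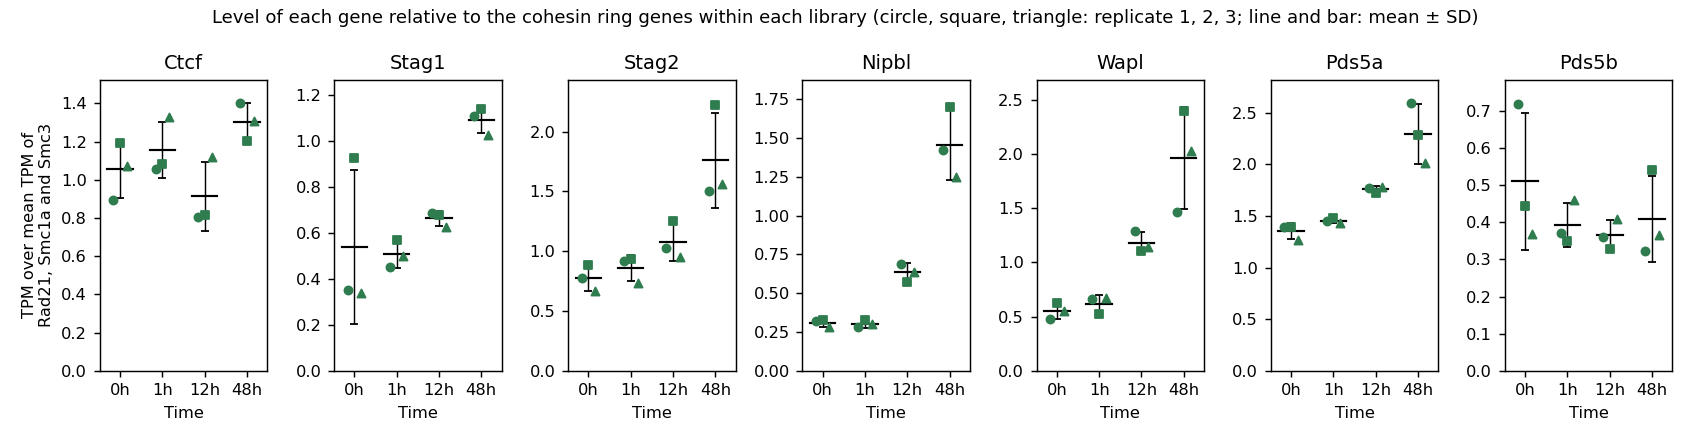
TPM of 7 genes divided by the mean TPM of the ring genes Rad21, Smc1a and Smc3 in the same library (vertical axes, each from 0), by time point (horizontal axes). Points are replicates, and lines and bars are the mean and SD. Nipbl goes from a mean of 0.31 at 0h to 1.46 at 48h and Wapl from 0.55 to 1.97, whereas the Pds5b libraries overlap.

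Most genes fell on a list of other cohesin-cycle genes, chosen with earlier results of these data known. Of 13 cohesin cofactors tested, 10 fell at 48h on both scales, against 21.9% of all genes, and none was called higher. The median log2 fold change over the 13 was -3.44, against 0.07 over all genes. The largest falls were of Plk1, the mitotic kinase that drives cohesin off chromosome arms (6.38 ± 1.19 TPM at 0h and 0.0833 ± 0.0971 at 48h, SD, n = 3), and of Espl1, the separase that cuts RAD21 (3.37 ± 0.251 TPM at 0h and 0.05 TPM in the mean at 48h). Both 48h levels are near or under the pseudocount of 0.1, so the sizes of these falls depend on it. Dscc1, which helps load the replication clamp, was at 1.48 ± 0.223 TPM at 0h and listed at 0 in all 48h libraries. The 3 members of the list that were not called were Mau2, the partner of NIPBL (log2 fold change 0.31, SE 0.22), Esco1, an SMC3 acetyltransferase (0.43, SE 0.30), and Hdac8, which removes that acetylation (-0.06, SE 0.33).

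Of 16 condensin, SMC5/6 and topoisomerase II genes, 12 fell on both scales at 48h, against 21.9% of all genes. The median log2 fold change over the 16 was -2.15. Top2a, the topoisomerase II of cycling cells, was at 22.5 ± 3.59 TPM at 0h and 0.223 ± 0.199 TPM at 48h (SD, n = 3), while Top2b, its paralog, which resting cells also express, was at 13.6 ± 4.53 and 14.2 ± 3.33 TPM and was not called. The condensin genes Smc2 (log2 fold change -4.46, SE 0.32) and Ncapd2 (-4.38, SE 0.35) fell more than any ring gene in size of change. Smc5 rose on scaled TPM only (0.70, SE 0.23, adjusted p = 0.0253, limma).

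Of 8 other architectural DNA-binding factors, Maz (log2 fold change -1.72, SE 0.24) and Patz1 (-0.69, SE 0.19) fell on both scales at 48h, a share close to the 21.9% of all genes. Vezf1 rose on scaled TPM only (0.78, SE 0.18, adjusted p = 0.00362, limma). The other 5, among them Yy1 (0.19, SE 0.36) and Zfp143 (0.54, SE 0.28), were not called on scaled TPM. Of 5 meiotic or germ line paralogs, Smc1b, Rec8, Rad21l and Stag3 were below the expression filter, with no library above 0.25 TPM. Ctcfl, the germ line paralog of Ctcf, had 0.48 ± 0.197 TPM at 0h and 0.783 ± 0.211 TPM at 48h (SD, n = 3) and was called higher on scaled TPM only (adjusted p = 0.0163, limma), while at 12h it was called higher on both scales (adjusted p = 0.0443 and 0.0136, limma).

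**Figure D4:**
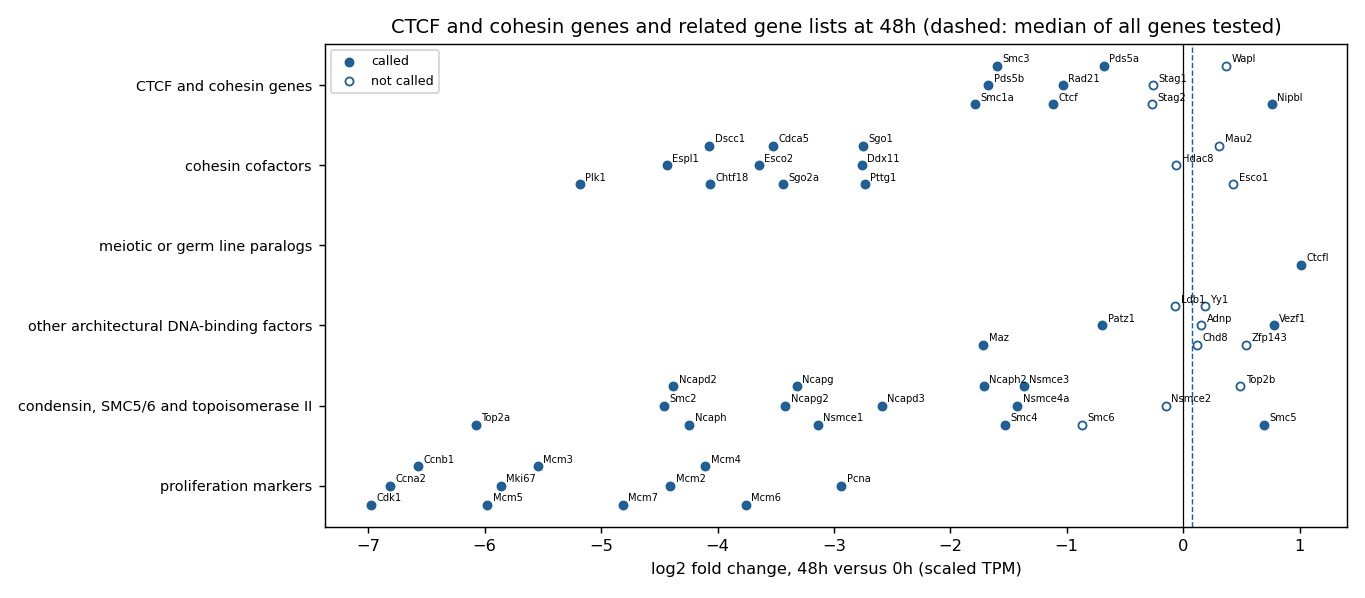
Log2 fold change at 48h against 0h on scaled TPM (horizontal axis) of the 10 genes and of related lists (rows). Filled points passed the test and the dashed line is the median of all genes tested. The values of Sgo2a and Dscc1, which were listed at 0 in all 48h libraries, depend on the pseudocount of 0.1. So do those of other genes with a 48h mean near or under 0.1 TPM, among them Plk1, Espl1, Cdk1, Ccna2 and Ccnb1. The CTCF and cohesin genes lie between -1.79 and 0.76, and all 11 proliferation markers lie below -2.9.

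Proliferation markers had a median log2 fold change of -5.54 at 48h on scaled TPM, against -0.86 over the 10 genes. All 11 (replication licensing, PCNA and mitotic cyclin genes among them) fell at 48h on both scales, against 21.9% of all genes. Cdk1, Ccna2 and Ccnb1 had the largest size of change. Their 48h means of 0.107, 0.0233 and 0.05 TPM were near or under the pseudocount of 0.1, so these sizes depend on it. For all 11 markers the levels were also summed. The summed level of the 11 was 206 to 251 TPM in the 0h libraries, 289 to 338 TPM (1h), 52.8 to 64.0 TPM (12h) and 8.1 to 9.28 TPM (48h), and none was at 0 throughout a group. Their part in the changes of the cohesin genes was not tested. The labelled cell types were checked by their markers. The 7 Pre-B cell markers summed to 139 to 147 TPM at 0h and 17.2 to 22.2 TPM at 48h, with 2 of them at 0 in all 48h libraries. The 7 macrophage markers summed to 8.5 to 10.0 TPM at 0h, with 2 of them at 0 in all, and to 454 to 539 TPM at 48h. Single genes weigh heavily in these sums, with means of 77.3 TPM for Vpreb3 at 0h and 359 TPM for Ctsc at 48h. At 48h against 0h, 6 Pre-B markers fell on both scales, and Blnk was not called on scaled TPM (adjusted p = 0.12, limma). From 12h to 48h Cd79b, Pax5 and Blnk were called higher on scaled TPM. For TPM as deposited only Blnk was (log2 fold change 0.78, adjusted p = 0.0123, limma), with Pax5 at 0.26 and Cd79b at -0.11. Erythroid and fibroblast markers were listed at 0 in all libraries, T cell markers reached at most 0.09 TPM in sum, and neutrophil granule markers at most 3.45 TPM.

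Likeness over the 12 libraries was measured as the root mean square difference between 2 genes' scaled log2 profiles, each centred on its mean, among the 9331 genes compared, as a description only. The genes nearest to Ctcf were Tfdp2, Srsf6 and Cpsf4 (differences of 0.17, 0.17 and 0.18), and Smc3 was the member nearest to it, at rank 72 (0.28). Nearest to Rad21 were Pitpnb, Exosc10 and Srpk1 (0.14, 0.14 and 0.15), with Pds5a at rank 18 (0.20). Nearest to Smc1a were Arhgap11a, Gas5 and Pole3 (0.18, 0.20 and 0.21), and nearest to Smc3 were Rfwd3, Smarcc1 and Ipo7 (0.13, 0.17 and 0.18). Smarcc1 also led for Pds5b (0.24), and Pds5a was nearest to Etf1, Ppp1r15b and Srpk1 (0.13, 0.15 and 0.15). Nipbl was nearest to Tmem87a, Chmp2b and Erbin (0.10, 0.12 and 0.13) and Wapl to Clip1, Ppp4r3b and 2610044O15Rik8 (0.10, 0.13 and 0.13). Stag1 was nearest to Cnot11, Uhrf1bp1 and Tmem70 (0.21, 0.24 and 0.25), and Stag2 to Alg10b, Zfp518a and Kdm1a (0.17, 0.18 and 0.20). Nipbl lay far from the ring genes, at 1.10 from Smc1a and 0.76 from Rad21.

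The promoters of 9 of the 10 genes lay on a captured fragment with listed contacts, 1 fragment each, and Smc3 had none in the lists, so its contacts were not analysed here. Fragments and other ends are on mm10. Each list came from 2 merged libraries. In the 0h list every contact had a CHiCAGO score of at least 5. The lists of 1h, 12h and 48h carry whole numbers of an unstated unit instead, and HOMER is the tool known here from the submitters' processing notes while the study's methods name CHiCAGO, so whether all 4 lists passed the same threshold could not be checked. Contact counts at different times are given side by side with that limit. With 1 list per time point there is no replicate check and no test. The 9 fragments had 69 contacts in the 0h list, 75 in the 1h list, 54 in the 12h list and 76 in the 48h list. Over the 11817 genes with a contact, the median was 8 contacts at 0h and 7 at each later time, and the lists held 138769, 137836, 131598 and 144072 interactions. Of the 69 contacts at 0h, 36 were listed at 48h too, or 52.2%, against 55.9% of all interactions. Many of the 69 have other ends that adjoin one another, so they are not independent and no interval is given.

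Nipbl had 15, 18, 19 and 29 contacts in the 4 lists in order of time, the most of the 9 at 12h and 48h but fewer than Wapl at 0h and Pds5a at 1h, all on chromosome 15 from the fragment chr15:8438172-8450452. Of these, 3, 12, 9 and 17 reached into the Nipbl gene itself (chr15:8290617-8444463, minus strand). All 6 contacts listed at every time point instead lay before its start, within the stretch between chr15:8565234 and chr15:8590672, at 122 to 143 kb from the fragment, with 0h scores of 5.39 to 15.1. Wapl went the other way, with 19, 13, 6 and 7 contacts, from a fragment (chr14:34670778-34674663) that also held the start of 5830448L01Rik. Its contacts inside the Wapl gene (chr14:34673928-34747983) numbered 7, 1, 0 and 1. The contact with the highest 0h score, 19.5, reached chr14:34751604-34757686 just past the end of the gene and was listed at all 4 times. The other lasting contact was with the promoter fragment of Glud1 and Shld2, 366 kb away.

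Pds5a, on chr5:65691916-65700347, had 16, 21, 16 and 15 contacts, of which 16, 19, 16 and 14 lay past the end of the gene. Of its 34 contacts, 5 were listed at all times, and 2 of those were with promoter fragments, one holding Lias and Rpl9 and the other Smim14 and Ube2k. Pds5b, on chr5:150671767-150674920, had 6, 7, 2 and 6 contacts, nearly all with other promoter fragments, and 2 of them, at 153 and 185 kb, were listed at all times. Its median score at 0h, 10.9, was the highest of the 8 fragments with contacts at that time.

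Ctcf, on chr8:105635582-105636943, had 4, 12, 4 and 3 contacts. At 1h, 11 of the 12 lay past the end of the gene, and none of the 4 at 0h was listed at any other time. Stag2, on chrX:42146572-42149710, had 5, 2, 5 and 8 contacts, and Stag1, on chr9:100596686-100602840, had 2, 1, 1 and 5. The start that RefSeq gives for Stag1 lies outside that fragment. Rad21, on chr15:51988294-51992959, had 2, 1, 0 and 0 contacts, and Smc1a, on chrX:152009838-152018415, which also holds the start of Ribc1, had 0, 0, 1 and 3. None of the contacts of Ctcf, Rad21, Smc1a, Stag1 or Stag2 was listed at all 4 times.

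**Figure D5:**
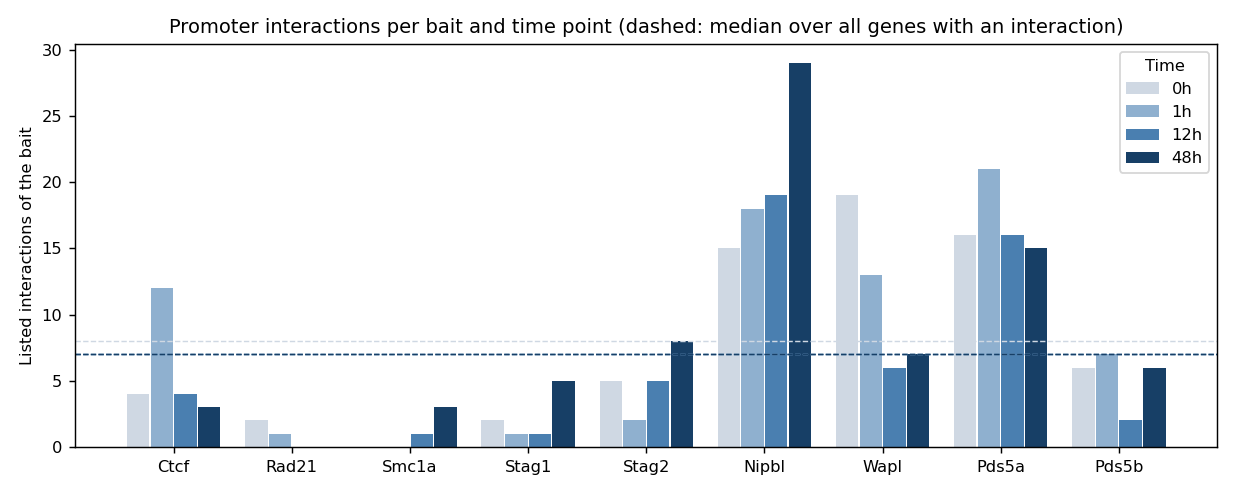
Listed contacts (vertical axis) of the 9 captured promoter fragments at 0h, 1h, 12h and 48h (bars, light to dark), from 1 merged list per time point. Dashed lines are the medians over all genes with a contact. Nipbl goes from 15 to 29 and Wapl from 19 to 7.

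Reads were not assigned by strand, so antisense and overlapping genes share reads with some of the 10. The highest overlapping gene was Gm47803, a processed pseudogene on the opposite strand within Stag1, with up to 7.35 TPM in one library, and the next was Gm5914, opposite to Ctcf, with up to 2.54 TPM. Those reads cannot be told apart from the gene's own where the exons overlap.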

How the data were processed

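RNA was sequenced from 12 libraries (3 per time point) after ribosomal RNA depletion with a kit that does not keep strand. The authors trimmed reads with Trim Galore 0.6.2, aligned them to mm10 with HISAT2 2.1.0 and deposited TPM from RSEM, with technical replicates merged. The deposited contact lists, on mm10, hold CHiCAGO scores at 0h. The values of the other lists were not used, as their scale was not settled. Hi-C was not used here.

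TPM were divided by median-of-ratios size factors over genes above 0 in all libraries. log2(scaled TPM + 0.1) of genes with mean TPM of at least 0.1 was fitted in limma 3.58.1 (R 4.3.3, trended variance, 12 libraries, 5 contrasts), tested on simulated data beforehand. A fold change on this scale understates the change of low genes. Ratios used exact permutation in numpy 2.4.6. Coordinates are GRCm38 (GENCODE M21). Genes named beside the 10 were up to 3 called per direction and list, by size at 48h, besides uncalled contrasts chosen after their values were seen, the 3 nearest profiles and lasting contact partners. The genes and lists were chosen with earlier results of these data known. Each library was left out in turn, and other scales, pseudocounts (1, 0.01), filters and blocks were tried.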

Additional observations from a re-analysis of the deposited data

How the results depend on the processing

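At 48h against 0h the same 6 genes were called lower under 10 of 13 alternatives and in each of the 6 fits that left out 1 library. The exceptions were TPM as deposited with the replicate block, which added Stag2 (7 lower), and a log2 fold change beyond 1 and a fit of only the 6 libraries compared, which each lost Pds5a (5 lower). The 1 gene higher, Nipbl, became 0 for TPM as deposited (without or with a replicate block), for TPM rescaled without the 20 most abundant genes and for a log2 fold change beyond 1. The scale decided most other changes. For TPM as deposited, 7 genes were called higher at 1h (8 with the replicate block), 1 higher and 2 lower at 12h against 0h (1 and 1 with the block), and 7 lower at 48h against 12h (8 with the block). Rescaling without the 20 most abundant genes gave 3 lower at 12h against 0h, 3 lower at 12h against 1h and 1 lower at 48h against 12h. A log2 fold change beyond 1 left 2 lower at 12h against 0h, 2 at 12h against 1h and 0 at 48h against 12h. At 48h against 12h the count lower was 1 with no filter, 1 with no variance trend, 0 with only the 6 libraries compared and 1 without replicate 3 of every time point, and 1 gene, Nipbl, was called higher with mean TPM at least 1, with a replicate block or without replicate 3 of every time point. Leaving out single libraries gave 3 to 5 genes lower at 12h against 1h, and 0 to 1 higher and 1 to 2 lower at 48h against 12h. The cause was not tested in any of these.

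Signs also turned. At 48h against 12h, TPM as deposited gave -0.67 for Wapl (called lower, 0.06 on scaled TPM), -0.20 for Nipbl, -0.66 for Stag1 and -0.68 for Stag2, which were 0.54, 0.07 and 0.05 on scaled TPM. Against 0h no turned value was called. For TPM as deposited, with or without the block, Pds5b at 1h was 0.43, Stag1 and Stag2 at 12h were 0.0019 and 0.0079, and Wapl at 48h was -0.037. Without replicate 3 of every time point Stag1 at 1h was -0.0084. With single libraries left out, log2 fold changes at 1h ran from -0.069 to 0.099 for Smc3, from -0.077 to 0.60 for Stag1, from -0.025 to 0.15 for Nipbl and from -0.43 to 0.11 for Pds5b, and the Stag1 range was -0.58 to 0.094 at 12h and -0.51 to 0.16 by 48h. Log2 ratios of 48h over 0h ran from -0.22 to 0.39 for Stag1 over Stag2, 0.80 to 1.27 for Pds5a over Pds5b, -0.45 to 0.14 for Smc1a over Smc3, 0.41 to 0.70 for Rad21 over Smc3 and -0.20 to 0.053 for Ctcf over Rad21. A CHiCAGO score of at least 10 left 16 contacts at 0h, of which 75% were listed at 48h, and other ends within 10 kb counted as shared gave 73.9%. The 10 kb rule also counts every exact match, so its share could not fall below the 52.2% of the main count. The score rule keeps only the higher-scored contacts. No conclusion is drawn from either share. Neither rule was applied to all interactions, so these shares have no background.

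Replicate numbers were not taken to pair the libraries, since not every same-numbered pair correlated at over 0.1. Deviations of same-numbered libraries from their group means correlated at -0.01 to 0.26 over 18 pairs, with 7 of the 18 over 0.1, and 7 of the 12 libraries correlated best with their own number. Differently numbered libraries correlated at -0.18 to 0.10, with a median of -0.06 against 0.08 for the same number. The main fit leaves this likeness out. The fit with the replicate block called 6 genes lower at 12h against 0h (Pds5a added), 6 at 48h against 0h, 7 at 12h against 1h and 3 at 48h against 12h, and permuting within replicate numbers left no ratio past the adjusted threshold. Replicate 3 stood apart at every time point, and without it 4 genes were lower at 12h against 0h, 6 at 48h against 0h and 5 at 12h against 1h. TPM hold no depth, so how far depth limits the low genes is unknown.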
